A study of Mus musculus with 6 samples.

Results

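The crystallins described here were measured in laser-captured ganglion cell layer of the mouse retina by 12 probe sets of 10 genes, out of 45037 probe sets that were not Affymetrix controls and 18193 genes with a symbol of their own. They were chosen by name alone, as all probe sets with the platform symbol Cryaa or Cryab (alpha crystallins, 4 probe sets), Cryba1, Cryba2, Cryba4, Crybb1, Crybb2 or Crybb3 (beta crystallins, 6 probe sets), and Crygs or Crygn (gamma crystallins, 2 probe sets). The Crush group held 3 eyes taken 6 hrs after the optic nerve was crushed, and the Control group held 3 uninjured eyes from the opposite side of the same animals. All were eyes of male C57BL/6J mice with no transgene or drug named, and the age of the animals was not given in the sources used here. About 6000 cells and 60 ng of total RNA were obtained from each eye, the RNA was amplified, and 1 array was run per eye. The captured layer is a mixture, which besides retinal ganglion cells (RGCs) also holds astrocytes, displaced amacrine cells, microglia, vascular endothelium and processes of Muller cells.

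Crystallins are the bulk proteins of the lens, where their dense, short-range packing gives transparency and refractive power. The alpha crystallins are small heat shock proteins that bind unfolding proteins and keep them from aggregating, and Cryab is also made outside the eye, in muscle, heart and glia. The beta and gamma crystallins are a separate family built from Greek key motifs, long regarded as structural proteins of lens fiber cells but also expressed at lower levels in neural retina. Crystallin transcripts are known to vary between retinas and to change after retinal injury.

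Each value is a linear signal intensity of 1 probe set on 1 array. Tests used log2 intensities with a floor of 16, over the 33169 probe sets whose mean on the 6 arrays reached 40. They were made with limma, and the eye number entered the fit so that each Crush eye was set against the Control eye of the same number. All 12 crystallin probe sets passed this filter, the dimmest being the Cryab probe set 1435837_at with a mean of 40.8. The median intensity was 131.2 to 153.9 on the Crush arrays and 141.1 to 142.6 on the Control arrays. Crush eye 2 differed most from the rest. On its array 1331 probe sets lay below every other array by a log2 margin above 1. The count was 4 to 57 on each of the others. The log2 fold changes of the crystallins are therefore also given without it. That fit has no pairing and keeps Control eye 2, so eye 1 weighs more in its Crush mean than in its Control mean. The 13 measured RGC markers summed to 58105 to 72279 on the Crush arrays and 64414 to 65967 on the Control arrays, and Nefl, the light neurofilament of these neurons, had 12173 to 14474 in Crush eyes and 13332 to 13974 in Control eyes. In a captured layer, fewer cells of a type and less RNA per cell cannot be told apart. Levels were compared between arrays for each probe set and not between probe sets, since probes differ in their response.

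Cryaa and Cryab form the mixed alpha crystallin oligomer of the lens. Cryaa, measured by 1452486_a_at, had intensities of 71.9, 15.9 and 50.5 in Crush eyes 1, 2 and 3, against 96.1, 45.6 and 42.5 in Control eyes 1, 2 and 3. The groups overlapped, Crush eye 2 lay at the floor, and the highest value in each group was that of eye 1. Crush over Control, the log2 fold change was -0.56 (SE 0.343, adjusted p = 0.679 from limma), with differences of -0.42, -1.51 and 0.25 in pairs 1, 2 and 3. Without the array of Crush eye 2, fitted without pairing, it was 0.078. In the paired fit without pair 2, which also leaves out that array, it was -0.084. The Cryaa value was thus near 0 without that array, and its sign depended on the fit.

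Cryab, the more widely expressed alpha subunit, had the brightest crystallin probe set of these arrays, 1434369_a_at, at 4199, 1566 and 2727 in Crush eyes 1, 2 and 3, against 7369, 3214 and 2965 in Control eyes 1, 2 and 3. It was lower in the Crush eye of every pair, while the groups overlapped because Crush eye 1 was above Control eyes 2 and 3. The log2 fold change was -0.66 (SE 0.216), which passed an unadjusted p under 0.05 but not the adjustment over all probe sets (adjusted p = 0.642 from limma). The differences were -0.81, -1.04 and -0.12 in pairs 1, 2 and 3. Without Crush eye 2 the value was -0.29 and no longer passed the unadjusted threshold, nor did it without pair 1 (-0.58) or without pair 2 (-0.47).

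The probe set 1416455_a_at of the same gene gave 288, 164 and 105 in Crush eyes 1, 2 and 3, against 603, 177 and 145 in Control eyes 1, 2 and 3. It too was lower in Crush in every pair, with the largest difference in pair 1 (-1.07) and smaller ones in pair 2 (-0.11) and pair 3 (-0.47). Its log2 fold change of -0.55 (SE 0.217, adjusted p = 0.642 from limma) was close to that of the brighter probe set, although the pair with the largest difference was not the same, and it was -0.52 without Crush eye 2. The third Cryab probe set, 1435837_at, stayed between 38.1 and 43.9 in Crush eyes and between 38.4 and 45.1 in Control eyes. Its log2 fold change was -0.02 (adjusted p = 0.971 from limma) and -0.083 without Crush eye 2, and of the 12 crystallin probe sets it alone did not separate eye 1 from the rest in either group. In the RefSeq annotation Cryab overlaps its neighbor Hspb2, another small heat shock protein gene, and the brightest Hspb2 probe set lay between 83.0 and 146 in Crush eyes and between 95.2 and 122 in Control eyes, with a log2 fold change of -0.02.

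Among the acidic beta crystallins, which associate with the basic ones in lens fibers, Cryba1 spanned the widest range. Its intensities on 1450671_at were 1740.4, 2.80 and 41.2 in Crush eyes 1, 2 and 3, against 2229, 164 and 25.3 in Control eyes 1, 2 and 3. Both eyes numbered 1 were far above all others, at 42.2 times Crush eye 3 within the Crush group and at 13.6 times Control eye 2 and 88.2 times Control eye 3 within the Control group. The log2 fold change between groups was -1.0 (SE 0.763, adjusted p = 0.721 from limma), with -0.36, -3.36 and 0.71 in pairs 1, 2 and 3. The pair 2 value was set by the floor of 16, since Crush eye 2 was listed at 2.80, and the value was 0.17 without pair 2 and 0.35 without Crush eye 2, with the sign turned.

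Cryba4 is the other acidic beta crystallin with a wide range. It gave 567, 67.7 and 77.7 in Crush eyes 1, 2 and 3, against 425, 98.0 and 57.1 in Control eyes 1, 2 and 3. Crush eye 1 was 8.38 and 7.30 times Crush eyes 2 and 3, and Control eye 1 was 4.33 and 7.44 times Control eyes 2 and 3. The difference between groups was small beside this, with a log2 fold change of 0.11 (SE 0.239, adjusted p = 0.907 from limma) and 0.42, -0.53 and 0.45 in pairs 1, 2 and 3. Cryba2 had 203, 61.1 and 136 in Crush eyes 1, 2 and 3, against 241, 108 and 135 in Control eyes 1, 2 and 3. Its log2 fold change was -0.35 (SE 0.202, adjusted p = 0.666 from limma), and in pair 3 the eyes were alike (0.01). Without Crush eye 2 the values were 0.65 for Cryba4 and 0.13 for Cryba2. In the paired fit without pair 2 they were 0.43 for Cryba4 and -0.12 for Cryba2.

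The basic beta crystallins differed among themselves. Crybb2, a major protein of the adult lens that is also expressed in neural retina, gave 1743, 678 and 913 in Crush eyes 1, 2 and 3, against 2095, 1053 and 1063 in Control eyes 1, 2 and 3. It was lower in Crush in each pair, with log2 differences of -0.27, -0.64 and -0.22 in pairs 1, 2 and 3, and the groups overlapped through Crush eye 1. Its log2 fold change was -0.37 (SE 0.155, adjusted p = 0.642 from limma) and did not pass the unadjusted threshold. It was -0.24 without pair 2 and -0.075 without Crush eye 2.

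Crybb1 ran the other way. Its values were 457, 361 and 409.5 in Crush eyes 1, 2 and 3, against 450.5, 318 and 343 in Control eyes 1, 2 and 3, higher in Crush in each pair by 0.02, 0.18 and 0.26. With a log2 fold change of 0.15 (SE 0.139, adjusted p = 0.757 from limma) the groups overlapped, and the spread within each group was far narrower than for Cryba1 or Cryba4. Crybb3 gave 94.7, 16.1 and 44.2 in Crush eyes 1, 2 and 3, against 88.4, 86.9 and 39.2 in Control eyes 1, 2 and 3. Its log2 fold change of -0.72 (SE 0.544, adjusted p = 0.720 from limma) came from pair 2 (-2.43), with 0.10 in pair 1 and 0.17 in pair 3, and it was 0.14 without pair 2. Without Crush eye 2 the values were 0.24 for Crybb1 and -0.052 for Crybb3.

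Crygs, the gamma crystallin that is made in the secondary fibers of the adult lens and is also found in retina, had the most negative log2 fold change of the crystallins. Its values were 2288, 4.74 and 50.1 in Crush eyes 1, 2 and 3, against 3226, 269 and 95.1 in Control eyes 1, 2 and 3. It was lower in Crush in every pair, and Crush eyes 2 and 3 were below every Control eye, while Crush eye 1 was above Control eyes 2 and 3, so that the groups overlapped. The log2 fold change was -1.83 (SE 0.708), past an unadjusted p under 0.05 and not past the adjustment (adjusted p = 0.642 from limma). In pairs 1, 2 and 3 it was -0.50, -4.07 and -0.93, and the pair 2 value again rested on the floor. It still passed the unadjusted threshold without pair 1 (-2.50) and without pair 2 (-0.71). It did not pass without pair 3 (-2.28), without Crush eye 2 in the fit with no pairing (-0.36) or with a floor of 1 (-2.42).

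Crygn, a small gamma crystallin expressed in retina as well as lens, gave 70.9, 23.4 and 61.3 in Crush eyes 1, 2 and 3, against 69.5, 61.6 and 72.6 in Control eyes 1, 2 and 3. Crush eye 2 alone was low, and the other 5 arrays lay close together. The log2 fold change was -0.54 (SE 0.300, adjusted p = 0.661 from limma), with 0.03, -1.40 and -0.24 in pairs 1, 2 and 3. It was -0.11 without pair 2 and -0.040 without Crush eye 2.

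**Figure D1:**
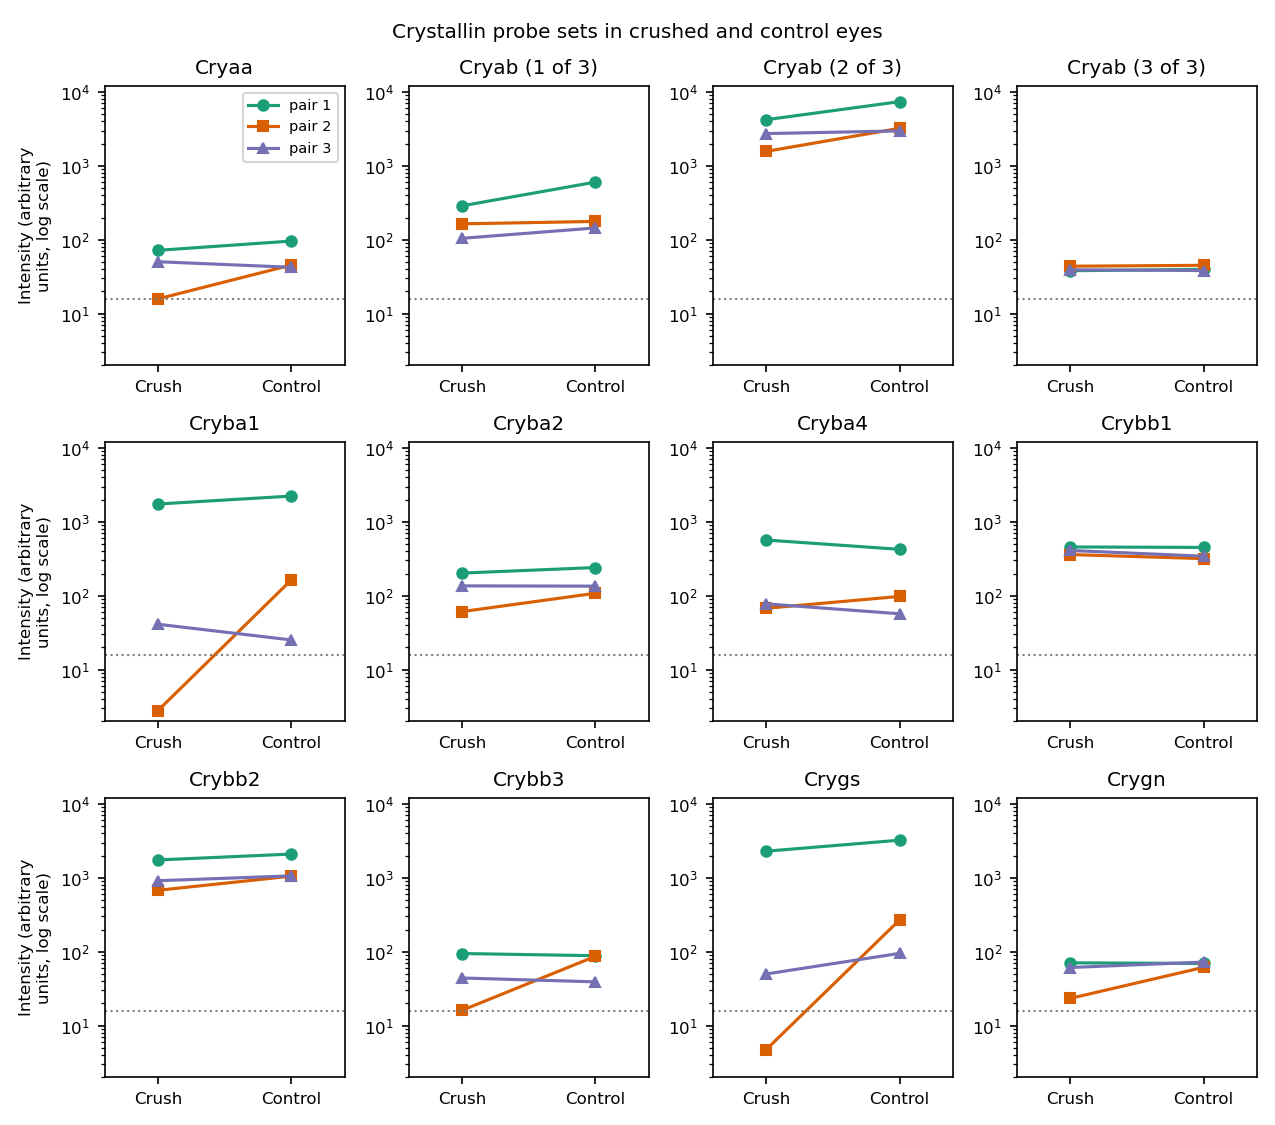
Intensity of each of the 12 crystallin probe sets on each array, on a log axis, with Crush eyes left of Control eyes, a color, marker and line for each pair (eye number), and a dotted line at the floor of 16. The Cryab panels are, in order, 1416455_a_at, 1434369_a_at and 1435837_at. Both eyes numbered 1 are highest for Cryba1, Crygs and Cryba4, and Crush eye 2 is listed at 2.80 for Cryba1 and 4.74 for Crygs.

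Read as classes, the crystallins lay lower in Crush on average, by amounts that depended on the eye. The median log2 fold change was -0.55 over the 4 alpha probe sets, -0.36 over the 6 beta probe sets and -1.18 over the 2 gamma probe sets, beside -0.01 over all probe sets tested. By pair, the alpha median was -0.61, -0.57 and -0.04 in pairs 1, 2 and 3, the beta median was -0.11, -0.73 and 0.21, and the gamma median was -0.23, -2.73 and -0.59. In pair 3 the beta crystallins were thus on average higher in the Crush eye, and without pair 2 the beta median over pairs 1 and 3 was 0.14. Without the array of Crush eye 2, fitted without pairing, the alpha median was -0.18, the beta median 0.18 and the gamma median -0.20. Without pair 2 the gamma median was -0.41, and the alpha median was -0.47 over the alpha probe sets that still passed the filter. The beta and gamma medians thus rested in large part on the array of Crush eye 2. For alpha this held in the fit without pairing but not in the paired fit without pair 2.

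A log2 fold change below 0 was found for 10 of the 12 crystallin probe sets, against 51.1% of all probe sets tested, and a value of -0.5 or lower for 7 of 12, against 4.67%. Lower values in Crush in all 3 pairs were seen for 4 of 12, the 2 brighter Cryab probe sets, Crybb2 and Crygs, where the share over all probe sets was 14.2%. Higher values in all 3 pairs were seen for Crybb1 alone, where that share was 17.6%. The difference was below 0 for 8 of 12 in pair 1 (all probe sets 46.2%), for 11 of 12 in pair 2 (57.8%) and for 5 of 12 in pair 3 (40.6%). The excess of negative values over the background was thus found in pairs 1 and 2 and was nearly gone in pair 3. Without pair 2, 7 of the 11 crystallin probe sets that then reached a mean of 40 were below 0, beside 40.8% of all, and their median was -0.11.

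In the test of the crush itself, 2 of 12 crystallin probe sets passed limma's unadjusted p of 0.05 on the lower side, Cryab (1434369_a_at) and Crygs, against 2.51% of all probe sets, and in a fit without the pairing neither passed. None of the 12 was higher at that threshold, against 5.16%. After adjustment none of the crystallins and 0% of all probe sets passed, with 2546 of 33169 at an unadjusted p under 0.05, and with the methods' paired t-test there were 1671 unadjusted and 0 adjusted. By the criteria of the study's methods, which ask for an unadjusted p under 0.05, a fold over 1.2 and an intensity difference over 80, the same 2 probe sets were lower when limma's p was used, against 0.543% of all, and none was higher, against 2.58%. With the paired t-test that those criteria name, 0 of the 12 passed the p on either side. For none of the 12 did the Crush and Control values fail to overlap, whereas this held for 5.25% of all probe sets on the lower and 7.29% on the higher side. The p-values of the paired limma fit rest on the spread of the Crush minus Control differences over these pairs. Their variance is drawn toward that of all probe sets. They do not measure the spread from eye to eye, and the number of eyes limits the precision.

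**Figure D2:**
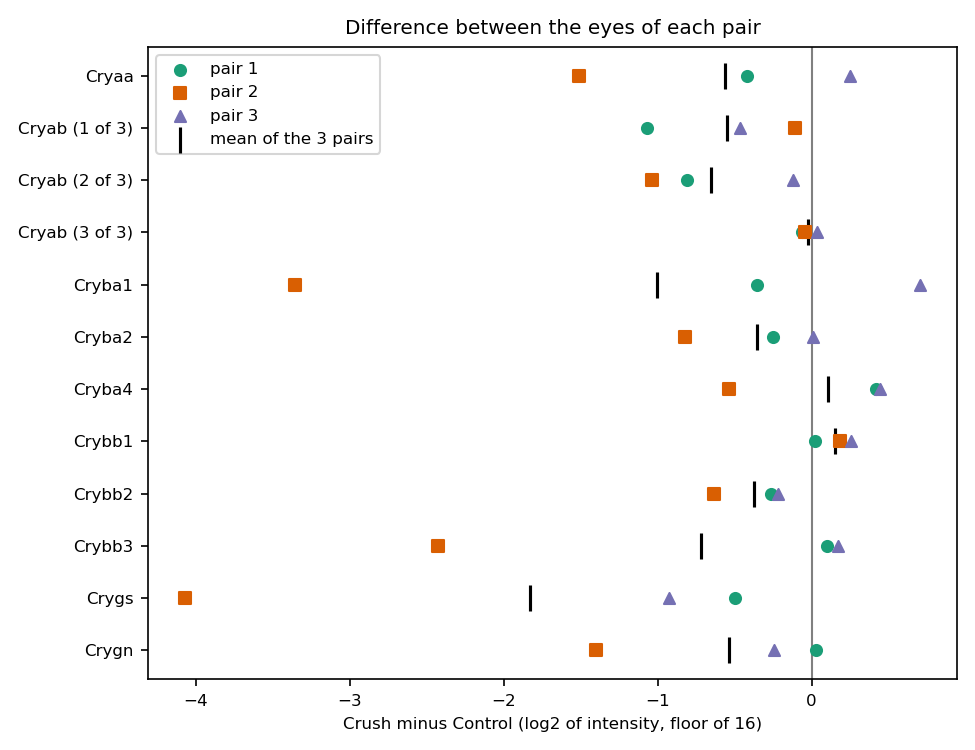
Log2 difference, Crush minus Control (x axis), in each of the 3 pairs (points) and its mean (black bar) for each crystallin probe set, ordered as alpha, beta and gamma and with the Cryab probe sets as in the plot of intensities, with values under 16 set to 16. Pair 2 carries the most negative differences, -4.07 for Crygs, -3.36 for Cryba1 and -2.43 for Crybb3, while Crybb1 is above 0 in each pair.

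A feature shared by most crystallins that the choice of genes did not use was their dependence on eye number. This pattern was noticed after the values were seen, so it is described for eyes number 1 as chosen. Both eyes numbered 1 were above all 4 other arrays for 10 of the 12 crystallin probe sets, the exceptions being Crygn and the Cryab probe set 1435837_at, while this was so for 8.31% of all probe sets. Crush eye 1 was the highest Crush eye for 11 of 12 (all probe sets 35.6%), and Control eye 1 was the highest Control eye for 10 of 12 (31.8%). The excess of eyes number 1 over the other 4 arrays exceeded 1 on the log2 scale for 9 of 12 crystallin probe sets and for 70 of 33169 in all, which is 0.211%. Cryaa is in each of these crystallin counts, although its mean over the other 4 arrays was under the filter of 40. It thus passed the filter only through eyes number 1.

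By this excess the 3 leading probe sets of the whole array were crystallins. Cryba1 had 5.60, Crygs 5.34 and Cryba4 2.74, and the next probe set after these had 1.65. For Cryba1 and Crygs the value of Crush eye 2 lay under the floor and entered as 16, so that their excess is a lower bound. The Cryab probe set 1416455_a_at stood at rank 7 (1.52), Cryaa at rank 19 (1.23), Crybb3 at rank 21 (1.21), Cryab 1434369_a_at at rank 29 (1.14), Cryba2 at rank 50 (1.07) and Crybb2 at rank 52 (1.07). Crybb1, at rank 3224 with 0.35, and Crygn, at rank 1455 with 0.48, were the genes with the least excess. The median excess was 1.19 for alpha, 1.14 for beta and 2.91 for gamma crystallins, beside 0.05 for all probe sets tested.

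The eye number block was then tested with limma's F test, which was added after the values were seen. It passed an unadjusted p under 0.05 for 8 of 12 crystallin probe sets, against 6.48% of all, and the exceptions were Crybb1, Crybb3, Crygn and Cryab 1435837_at. None of the crystallins and 0% of all probe sets passed after adjustment, with 2148 at the unadjusted threshold, and the adjusted p of Cryba1, Crygs and Cryba4 was 0.685. When pair 1 was left out, Cryaa, which is among the 8, fell under the filter. Of the 11 crystallin probe sets then tested, 0 passed the unadjusted threshold for eye number (all probe sets 6.15%). The count was 9 of 11 without pair 2 (10.2%) and 8 of 12 without pair 3 (3.71%). Since the pattern had been noticed in eyes number 1, the count without pair 1 is no independent check. The excess taken for eyes number 2 or eyes number 3 did not exceed 1 for any crystallin probe set, although it did for 47 and 208 probe sets of the array. Eyes of 1 number share an animal, as far as the pairing holds, and any sampling or hybridization done together, and these cannot be told apart in this design.

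**Figure D3:**
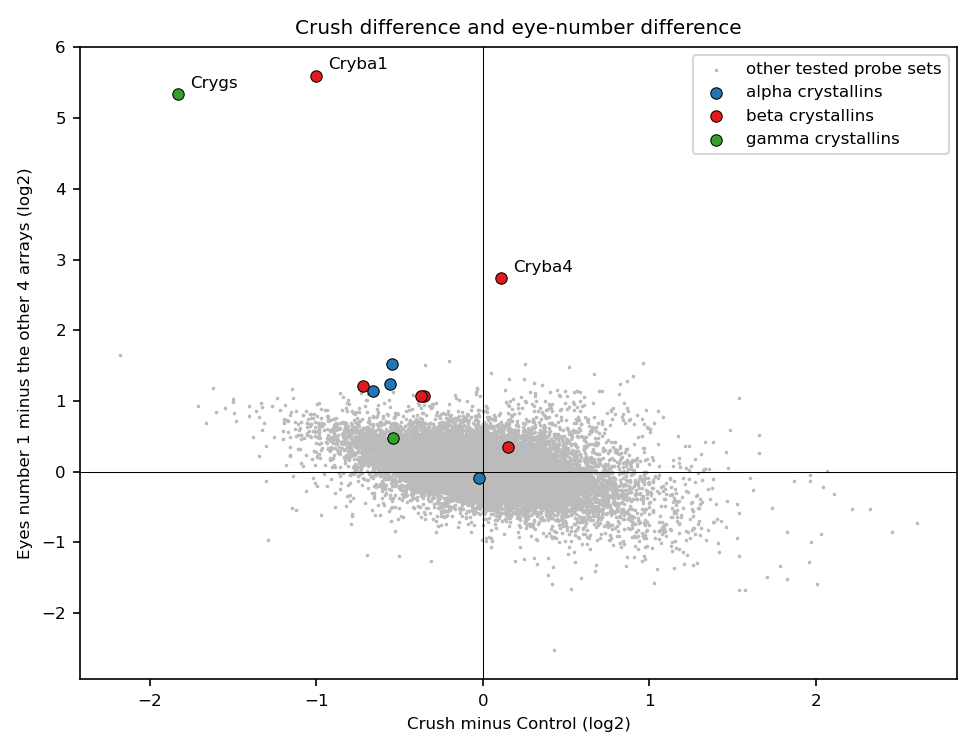
Difference between eyes number 1 and the other 4 arrays (y axis, log2) against the log2 fold change of Crush over Control (x axis) for all 33169 probe sets tested (grey) and the crystallin probe sets (colored by class). Cryba1 at 5.60, Crygs at 5.34 and Cryba4 at 2.74 lie above every other probe set on the y axis.

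The low values of Crush eye 2 are described apart, although they also enter the excess of eyes number 1. That excess was not computed without this array. That array was the lowest of the 6 for 8 of 12 crystallin probe sets, where 34.6% of all probe sets had their lowest value on it. For 4 of 12, namely Cryaa, Crybb3, Crygs and Crygn, it was lower than each other array by over 1 on the log2 scale, against 4.01% of all. In Control eye 2, Crybb3 at 86.9 and Crygn at 61.6 were close to the values of Control eye 1. Cryaa at 45.6 and Crygs at 269 were well below Control eye 1 (96.1 and 3226), though above Control eye 3 (42.5 and 95.1). The part of that array's general deviation in these values was not tested.

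The regions just upstream of the crystallin genes are shown for the 3 genes with the widest range between eyes and for Crybb1, the neighbor of Cryba4 in the genome that lacked this range. RefSeq promoters of build GRCm38.p6 were matched by symbol for 9 of the 10 genes. Each line gives the 250 bases before an annotated start of the gene, 5′ to 3′ on the strand of the gene. The motif TGCTGA, or TCAGCA where it lies on the other strand, is in capitals. TGCTGA is the core of the recognition element of the large Maf proteins, transcription factors of lens fiber genes.
Cryba1, chr11:77725294-77725543, minus strand: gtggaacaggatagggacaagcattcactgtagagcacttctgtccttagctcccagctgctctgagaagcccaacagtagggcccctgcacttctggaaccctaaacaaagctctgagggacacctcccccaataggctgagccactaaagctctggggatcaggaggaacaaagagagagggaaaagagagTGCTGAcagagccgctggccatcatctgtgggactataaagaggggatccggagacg
Crygs, chr16:22811411-22811660, minus strand: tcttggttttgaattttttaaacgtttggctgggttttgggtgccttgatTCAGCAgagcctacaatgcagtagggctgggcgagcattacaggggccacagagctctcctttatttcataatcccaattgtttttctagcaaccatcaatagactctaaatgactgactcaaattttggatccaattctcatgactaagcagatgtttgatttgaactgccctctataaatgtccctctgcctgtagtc
Cryba4, chr5:112252519-112252768, minus strand: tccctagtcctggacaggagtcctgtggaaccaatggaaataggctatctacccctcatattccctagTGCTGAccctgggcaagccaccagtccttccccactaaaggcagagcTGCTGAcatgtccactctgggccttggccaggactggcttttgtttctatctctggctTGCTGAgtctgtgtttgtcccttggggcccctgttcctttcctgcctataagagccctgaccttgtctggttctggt
Crybb1, chr5:112255570-112255819, plus strand: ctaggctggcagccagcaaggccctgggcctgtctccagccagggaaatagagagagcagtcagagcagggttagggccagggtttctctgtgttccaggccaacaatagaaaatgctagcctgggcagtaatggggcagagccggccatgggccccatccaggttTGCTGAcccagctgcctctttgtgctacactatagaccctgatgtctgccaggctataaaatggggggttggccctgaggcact

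The motif began 57 bases before the start of Cryba1 and 84 bases before that of Crybb1. It occurred 3 times before Cryba4, at 182, 135 and 77 bases, and once before Crygs, at 200 bases on the other strand. It was present on either strand in 8 of the 9 crystallin promoters, all but that of Crybb2, against 16.1% of the 32851 promoters of the table, in windows of the same length. The heat shock element core GAANNTTC was found in 0 of 9 (6.69% of all promoters) and TATAAA in 3 of 9, those of Cryba1, Crybb1 and Crygs (12.4% of all). The motif was thus shared by genes with and without the wide range between eyes. Cryba4 and Crybb1 are neighbors on opposite strands whose RefSeq gene models overlap, although from the starts used for the windows above they run apart. Crybb2 and Crybb3 are also neighbors on chromosome 5. Eyes number 1 exceeded the other arrays by 2.74 on the log2 scale for Cryba4 and by 0.35 for Crybb1.

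The other lens crystallins were few on these arrays. Of 6 genes listed, 4 had a probe set with that symbol alone and 1 passed the intensity filter, Crygb, a gamma crystallin of the lens fiber core. It gave 123, 38.7 and 35.9 in Crush eyes 1, 2 and 3, against 70.3, 43.0 and 33.7 in Control eyes 1, 2 and 3. Eyes number 1 were again on top, with an excess of 1.31 at rank 15. The values of Crygb in the other eyes, 33.7 to 43.0, averaged under the filter's mean of 40. It thus passed only through eyes number 1 and is no independent case of the pattern. Its log2 fold change in the crush comparison was 0.25 (adjusted p = 0.753 from limma). Cryga, Crygd and Crygf were below the filter. Crygd had its highest value of each group in eye 1, at 79.0 in Crush and 34.1 in Control. Cryga and Crygf were highest in eye 1 among Crush eyes (26.7 and 19.2) but lowest in eye 1 among Control eyes (20.1 and 9.60).

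The lens cell markers other than crystallins that passed the filter did not have this pattern. Of 15 genes listed, 11 had a probe set with that symbol alone, 6 passed the filter, and 2, Foxe3 and Dnase2b, were under 16 on all arrays. For 0 of the 6 were both eyes number 1 above the other arrays, and the median excess was 0.13. Mip, the water channel of lens fibers, had 125, 112 and 154 in Crush eyes 1, 2 and 3, against 131, 107 and 105 in Control eyes 1, 2 and 3. Lim2, a lens fiber membrane protein, had 130, 132 and 144 in Crush eyes, against 111, 121 and 126 in Control eyes. Bfsp1, a beaded filament protein of lens fibers, was listed between 6.02 and 18.3 in Crush eyes and between 4.58 and 10.2 in Control eyes, with its highest value in Crush eye 3 and, among Control eyes, in eye 1. Bfsp2, from the same list, had 18.3, 1 and 1 in Crush eyes 1, 2 and 3, against 15.4, 0.66 and 10.6 in Control eyes. Its eyes number 1 were thus on top, but it was below the filter and only Crush eye 1 exceeded the floor of 16. The 11 genes summed to 997, 730 and 1035 in Crush eyes 1, 2 and 3, against 983, 889 and 868 in Control eyes 1, 2 and 3, so that the sum of eye 1 was the highest of the Control eyes but not of the Crush eyes.

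Among the relatives of the alpha crystallins, the other small heat shock proteins, all 6 listed genes were tested and none passed an unadjusted p under 0.05 from limma for crush or for eye number. Hspb6, a small heat shock protein of muscle that binds Cryab, came nearest to the crystallin pattern with 2393, 1073 and 2147 in Crush eyes 1, 2 and 3, against 2852, 1761 and 1392 in Control eyes 1, 2 and 3. Its eyes number 1 exceeded the other arrays by 0.76, and its log2 fold change was -0.11 (adjusted p = 0.919 from limma). Hspb1, a stress-induced chaperone of neurons and glia, had a log2 fold change of -0.13, Hspb8 of 0.01, Hspb7 of -0.23 and Hspb3 of -0.21. Of the enzymes that serve as crystallins in the lenses of other vertebrates, 6 of 7 were tested, and none passed the unadjusted threshold for crush. Aldh1a1, a retinal dehydrogenase of the dorsal retina, had 2564, 3343 and 2312 in Crush eyes 1, 2 and 3, against 5554, 995 and 1651 in Control eyes 1, 2 and 3, so that its excess of 1.00 in eyes number 1 came from the Control eye.

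Of 10 transcription factors that act on crystallin genes, 8 were tested, and none passed an unadjusted p under 0.05 from limma for crush, with a median log2 fold change of -0.13. Maf, the lens fiber Maf protein, had 807, 714 and 757 in Crush eyes 1, 2 and 3, against 961, 1089 and 759 in Control eyes 1, 2 and 3 (log2 fold change -0.29, adjusted p = 0.674 from limma). It was lower in Crush in each pair, by an amount near 0 in pair 3. Prox1, a homeobox factor of lens fibers and of amacrine and horizontal cells, had 214, 490.4 and 276 in Crush eyes, against 339.9, 559.9 and 279 in Control eyes, with its highest values in the eyes numbered 2. Pax6, which acts in lens epithelium, amacrine cells and RGCs, had a log2 fold change of -0.17, and Hsf2, a heat shock factor, of 0.28.

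Other cell type markers were read beside the crystallins in the same arrays. The 9 measured rod markers summed to 50614, 42747 and 49868 in Crush eyes 1, 2 and 3, against 55949, 42191 and 30904 in Control eyes 1, 2 and 3, so that eye 1 was the highest in each group. The 9 genes of the retinal pigment epithelium and ciliary body summed to 3581, 2808 and 9361 in Crush eyes 1, 2 and 3, against 1450, 1465 and 2027 in Control eyes 1, 2 and 3, higher in every Crush eye and not in eyes number 1. Most of the Crush sums was Ttr alone, at 2332, 1733 and 7355 in Crush eyes, against 508, 493 and 948 in Control eyes. Of the 7 genes tested, 5 had a log2 fold change above 0 and 2 below, Tyrp1 (-0.40) and Best1 (-0.01). The 10 Muller cell genes summed to 40362 to 42910 in Crush eyes and 42255 to 47136 in Control eyes, and the 4 astrocyte genes to 5834 to 6812 in Crush eyes and 4786 to 5879 in Control eyes. Most of the astrocyte sum was S100b, with a log2 fold change of 0.15, while Gfap had 0.85, Pdgfra 0.40 and Sox8 -0.56. The part of these cell types in the crystallin values was not tested.

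**Figure D4:**
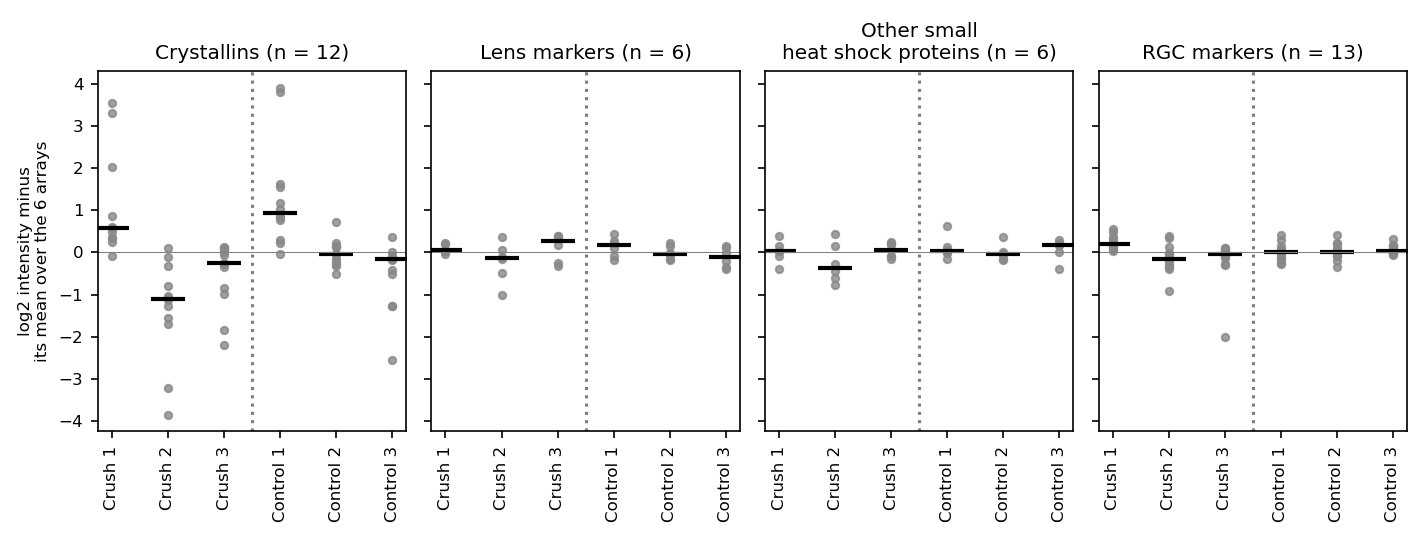
Log2 intensity of each probe set or gene (grey points) relative to its mean over the 6 arrays, and the median over the group (black bar), on each Crush and Control array, for the crystallins, the lens markers other than crystallins, the other small heat shock proteins and the RGC markers. The crystallin panel spreads widely with eyes number 1 on top, while the 6 tested lens markers other than crystallins stay near their mean apart from Grifin, at 136 in Crush eye 2.

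Genes whose profile over the 6 arrays was most like that of each crystallin class were sought among 15091 genes with a symbol of their own. Pearson's r is given as a description, since it rests on 6 arrays that are paired by eye number. The profile of the alpha crystallins was most like that of Mertk, the receptor kinase of phagocytosis in pigment epithelium and glia (r = 0.997), followed by Ebp, a sterol isomerase, Arhgap28, Fn1, the extracellular matrix protein fibronectin, Ncbp2 and Upf2. For the beta crystallins they were Zfp369 (r = 0.997), Drg2, Clic4, Tbck, Psmb2 and Tigar, and for the gamma crystallins Zscan20 (r = 0.991), Dynlt1f, Vps53, Mfsd9, Tbck and Cars2. For all 18 entries both eyes number 1 were above the other 4 arrays. The choice by r made this likely, since the class profiles have the same eyes on top. The excess was no more than 0.64 on the log2 scale. An r above 0.9 was reached by 280 genes for alpha, 177 for beta and 289 for gamma crystallins. The genes nearest in shape thus varied far less in size between eyes than Cryba1, Crygs and Cryba4.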

How the data were processed

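Gene expression was measured with 1 Affymetrix mouse array per eye. The deposited values are linear signal intensities, calculated by the authors in dChip with the PM/MM model after invariant set normalization across arrays. They cover 45101 probe sets, and 64 Affymetrix controls were left out. Precision is limited by the number of arrays.

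Probe sets were named through the platform annotation, where 34945 had a single symbol, 932 several (not used) and 9160 none. Values under 16 were raised to 16 before taking log2. Those 33169 whose mean reached 40 were fitted with limma 3.58.1 in R 4.3.3, the eye number being a block, and p-values were adjusted over all of them by Benjamini-Hochberg. The labels number the eyes without saying what the numbers mark. A paired test is used in the methods, and deviations from the group means correlated at 0.154, 0.125 and 0.297 between eyes of the same number and at -0.264 to 0.131 otherwise. The excess of one eye number is the mean log2 value of its 2 arrays minus that of the other 4.

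All crystallin probe sets are given. From the other lists of 6 or fewer genes the text names every measured gene, except for the beta gamma domain proteins outside the lens, which are not described. From the longer lists it names some of up to 4 with the smallest p, or none. The Muller cell and rod lists are given as sums, and the amacrine cell list is not described. Each listed gene is given by its brightest probe set. The 6 genes most like each crystallin class are also named. Bfsp1, Bfsp2, Foxe3, Dnase2b, Aldh1a1, Nefl, Tyrp1 and Best1 were named outside this rule, with their values seen. The members, lists and tests were chosen with earlier results of these data known. The alternatives covered the block, the floor, the filter, the scaling, the prior, the test and the arrays used. The F test of eye number, and the fits without Crush eye 2 or Crush eye 3, were chosen after seeing the data. Tested on simulated data of the same size, the fit found 0% of the changes of 1 on the log2 scale and 54% of those of 2 at an adjusted p under 0.05, so a count of 0 does not show that such changes are absent.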

Additional observations from a re-analysis of the deposited data

How the results depend on the processing

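The number of crystallin probe sets lower in Crush at an unadjusted p under 0.05 (2 of 12) was 0 without the replicate block, with no intensity filter and with the methods' paired t-test, 1 with a floor of 1 or of 64, and 4 with a pseudocount of 16, with a minimum mean of 100 (8 tested) or with a trended, robust prior. Over the settings that leave out eyes it was 0 to 2, and the number higher was 0 to 1, the 1 being Cryba4 without pair 2 (0.43). Over the same settings the median log2 fold change was -0.76 to -0.18 for alpha, -0.49 to 0.18 for beta and -1.66 to -0.20 for gamma crystallins, and for each class the highest value was that without Crush eye 2. Over all probe sets, 1 passed an adjusted p under 0.05 with the trended, robust prior and 0 under every other setting run. The sign turned for Cryaa (0.078), Cryba1 (0.35) and Cryba2 (0.13) without Crush eye 2 in the fit with no pairing. It also turned for Cryba1 (0.17) and Crybb3 (0.14) without pair 2, and for Cryba4 without pair 1 (-0.045) or pair 3 (-0.058). In the paired fit without pair 2, Cryaa (-0.084) and Cryba2 (-0.12) kept their sign. Over all settings that leave out eyes, log2 fold changes ran for Cryaa between -0.96 and 0.078, for Cryba1 between -1.86 and 0.35, for Cryba2 between -0.54 and 0.13, for Cryba4 between -0.058 and 0.65, and for Crybb3 between -1.17 and 0.14. The other values of single probe sets kept their sign, 138 on the same side of the unadjusted threshold, 12 newly past it and 16 no longer past it. The causes were not tested. With a floor of 64 Cryab 1435837_at gave no value, since all 6 arrays were at the floor. Low signal limits Cryaa, Cryba1, Crybb3 and Crygs in Crush eye 2, where values lay at or under the floor or near it.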
